A study of Mus musculus with 9 samples.

Results

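Cultures of 4T1 cells grown as 3D spheroids were compared with cultures of the same cells grown as 2D monolayers, both in medium with 75 µM palmitate added. The comparison used 6 of the 9 libraries of the RNA-seq series, 3 for each culture form, and was chosen by the culture and treatment labels alone, over all 24421 genes of the table, of which 12575 had enough counts to be tested. 4T1 is a mouse mammary carcinoma line without estrogen receptor, progesterone receptor or HER2, and all libraries came from this 1 line. The 3D cells were plated on a base of soft agar and the 2D cells on plastic, for 5 days, in RPMI medium with fetal bovine serum, and the palmitate was given bound to bovine serum albumin. The remaining 3 libraries came from 3D spheroids at 5 days without added palmitate, and 2D cultures without added palmitate were not analysed here, so the effect of the culture form was measured only in the presence of palmitate. The labels number the replicates but do not say whether they were separate cultures. The p-values set each difference against the spread between libraries of the same condition, estimated over all 9 libraries, and that spread may be technical.

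Cells spread on plastic hold on through integrins, which bind matrix proteins outside the cell and the actin cytoskeleton inside through focal adhesion plaques, and the pull on these sites keeps the coactivators YAP and TAZ in the nucleus, where they act with TEAD factors. Cells in a spheroid touch mainly other cells and the matrix that they deposit, and nutrients and oxygen reach them by diffusion. Ribosomal proteins, translation factors and respiratory subunits are known to follow the growth rate and metabolism of cells, and NRF2, the factor encoded by Nfe2l2, is known to drive glutathione and detoxification genes under oxidative or electrophilic stress.

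Total counts ranged from 6595514 to 27047217 in the 3D libraries and from 12235351 to 31177756 in the 2D libraries. Replicate 3 of the 3D libraries was the shallowest and stood apart from the other libraries on the second principal component, which held 5.65% of the variance, whereas the first held 82.3%. Levels are given as CPM, counts scaled to a common library size after TMM correction, given in the order of replicates 1, 2 and 3. "3D" stands for 3D with palmitate unless said otherwise, a log2 fold change is 3D minus 2D with its standard error after ±, and adjusted p-values are from the quasi-likelihood test of edgeR with Benjamini-Hochberg adjustment over all genes tested. A gene is called higher or lower in 3D where its adjusted p was under 0.05. The summed level of 11 epithelial markers was 5447, 5236 and 5185 CPM in 3D and 4206, 4090 and 4408 CPM in 2D. Of other cell types, 2 of 11 leukocyte, 3 of 8 endothelial, 4 of 9 fibroblast, 1 of 6 erythroid and 0 of 6 adipocyte markers had enough counts to be tested. The summed endothelial markers were 198, 198 and 197 CPM in 3D and 115, 116 and 114 in 2D, nearly all from Flt1 and Eng, while the defining markers Pecam1 and Cdh5 were at 0.33 CPM or less in these 6 libraries. The summed fibroblast markers were 94.1, 95.3 and 113 CPM in 3D and 33.99, 35.1 and 34.6 in 2D, nearly all from Pdgfra, with Col3a1 and Lum at 0 in all 9 libraries. The summed leukocyte markers were 19.3, 17.5 and 16.4 CPM in 3D and 37.7, 33.9 and 38.9 in 2D, nearly all from Cd68 and Cd14, with Adgre1, Cd3e and Tyrobp at 0 in all 9. The part of other cells in the results was not tested.

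Most genes differed between the culture forms. Of 12575 genes tested, 8594 or 68.3% had an adjusted p under 0.05, 34.5% higher in 3D and 33.9% lower, and the median log2 fold change over all genes was 0.0083. At least 2-fold differences were fewer, with 9.83% of genes at least 2-fold higher and 5.84% at least 2-fold lower. The counts of each gene list are read against these shares. The lists cover adhesion, cytoskeleton, secreted factors, redox, translation, respiration and proliferation, and hold 1571 genes of the table, of which 1279 had enough counts to be tested. The plot of log2 fold changes by list shows wide spreads in both directions for adhesion, secreted and redox genes. Most translation and respiration lists had narrower distributions, mostly below 0. Exceptions included the hypoxia response, from -1.64 to 0.93, the citric acid cycle list, from -1.06 to 1.62, and the mitochondrial tRNA synthetases, from -1.50 to 1.27.

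**Figure D1:**
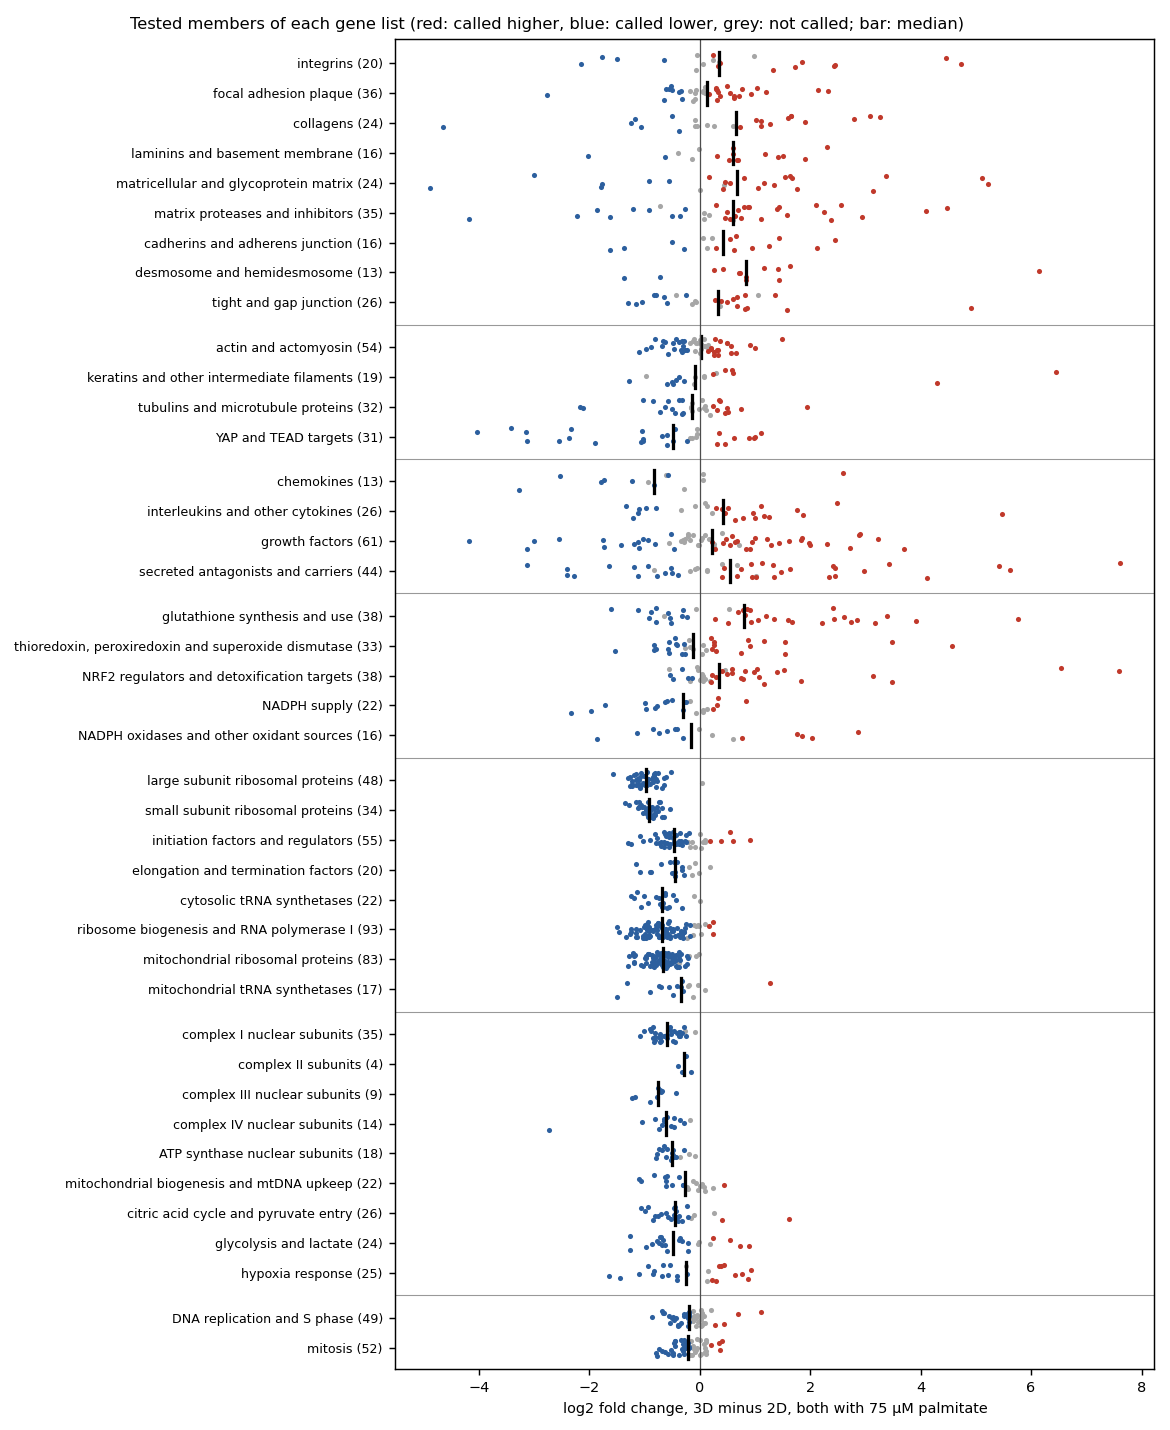
Log2 fold change of each tested member of 41 gene lists (horizontal axis, 3D minus 2D, both with 75 µM palmitate), with the number of members tested in parentheses. Red points are called higher and blue points called lower at an adjusted p under 0.05, grey points are not called, and the bar is the median, which lies at -0.98 for large subunit ribosomal proteins and at 0.84 for desmosome genes.

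Adhesion genes were more often higher than lower in 3D. Of 210 tested, 120 were higher and 50 lower, with 61 at least 2-fold higher and 24 at least 2-fold lower, and the median log2 fold change was 0.44. The integrins that bind laminin in epithelial cells were among them. Itgb4, the β4 chain that pairs with α6 in hemidesmosomes (chr11:115974709-116008412), had 673, 621 and 565 CPM in 3D and 111, 116 and 115 CPM in 2D. Its log2 fold change was 2.44 ± 0.071 with an adjusted p of 1.58e-12. Its partner Itga6 had 469.8, 506 and 523 CPM in 3D and 202, 219 and 180.1 CPM in 2D, a log2 fold change of 1.32 ± 0.075 with an adjusted p of 1.53e-09. For both chains every 3D library lay above every 2D library. Lama3, a chain of the laminins that these integrins bind, had 161, 175 and 199 CPM in 3D and 34.7, 39.1 and 33.3 CPM in 2D. Its log2 fold change was 2.31 ± 0.091 with an adjusted p of 2.98e-11, and the groups did not overlap.

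Of 20 integrins tested, 10 were higher and 4 lower, with a median of 0.34. The collagen-binding chain Itga1 rose from 2.56, 2.66 and 2.14 CPM in 2D to 50.6, 67.99 and 81.8 CPM in 3D, a log2 fold change of 4.72 ± 0.19. Itga8, a chain that binds RGD-containing matrix proteins, rose from 8.60, 9.10 and 8.69 to 169.7, 184 and 234 CPM, a log2 fold change of 4.46 ± 0.12. Both had more than 10-fold higher levels in every 3D library than in any 2D library. Itgb1, the shared chain of many integrins, differed far less, with 1295, 1393 and 1680 CPM in 3D and 1192, 1190 and 1103 CPM in 2D and a log2 fold change of 0.32 ± 0.081. The fibronectin receptor chain Itga5, at 75.00, 67.6 and 68.8 CPM in 3D and 69.1, 74.2 and 78.95 CPM in 2D, overlapped between the groups and did not pass the test (adjusted p = 0.373). It was called lower, at -0.27, when the GC and length dependence was removed. The lower integrins included Itga7, with 6.48, 6.68 and 5.21 CPM in 3D and 19.4, 21.98 and 22.5 CPM in 2D, and Itgb7, with 4.20, 3.80 and 2.60 CPM in 3D and 11.3, 10.3 and 10.6 CPM in 2D. Of 36 focal adhesion plaque genes, 18 were higher and 9 lower, a split that turned to 13 and 16 with the GC and length dependence removed, and 4 were at least 2-fold higher and 1 at least 2-fold lower. Tns4, an epithelial tensin, was the largest rise of the plaque genes, with 329, 335 and 349 CPM in 3D and 70.6, 71.1 and 61.6 CPM in 2D. Vcl, which links talin to actin, had a log2 fold change of 0.63 ± 0.065, and Pdlim7 had -0.61 ± 0.074.

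Desmosome genes were also mostly higher, whereas other cell to cell junction genes were more divided. Of 13 desmosome and hemidesmosome genes tested, 11 were higher and 2 lower, and the median log2 fold change was 0.84. Dsg3, a desmosomal cadherin of stratified epithelium, had 16.7, 17.9 and 23.4 CPM in 3D and 0.248, 0.352 and 0.134 CPM in 2D, a log2 fold change of 6.14 ± 0.24. The plaque protein Pkp1 had 52.96, 51.4 and 50.5 CPM in 3D and 17.1, 16.5 and 16.7 CPM in 2D, a log2 fold change of 1.63 ± 0.068. Desmoplakin, Dsp, had 307, 314 and 335 CPM in 3D and 201, 209.7 and 175 CPM in 2D, a log2 fold change of 0.71 ± 0.072. The 2 lower members were plakophilins too. Pkp2 had 34.04, 35.8 and 33.5 CPM in 3D and 90.2, 86.7 and 92.7 CPM in 2D. Pkp4 had 82.3, 81.4 and 78.7 CPM in 3D and 132, 138 and 131 CPM in 2D. Members of 1 family thus moved in opposite directions, each without overlap between the groups. Of 16 cadherin and adherens junction genes tested, 9 were higher and 4 lower. E-cadherin, Cdh1, the main adherens junction protein of epithelium, had 581, 577 and 601 CPM in 3D and 544, 545 and 525 CPM in 2D and did not pass the test (adjusted p = 0.0589). Epcam had 672, 701 and 749 CPM in 3D and 266, 257 and 266 CPM in 2D, a log2 fold change of 1.43 ± 0.060, and Jup, plakoglobin, had 1.26 ± 0.085. Of 26 tight and gap junction genes, 12 were higher and 8 lower. Here the paralogs Cgnl1 and Cgn, which link tight junctions to the cytoskeleton, moved in opposite directions, with log2 fold changes of 1.37 ± 0.093 and -1.30 ± 0.069.

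The matrix lists split in the same way. Of 24 matricellular and glycoprotein genes 16 were higher and 6 lower, of 24 collagens 12 and 6, and of 16 laminin and basement membrane genes 11 and 2. Osteopontin, Spp1, a secreted ligand of integrins and CD44 (chr5:104435118-104441050), had 4598, 4838 and 5732 CPM in 3D and 587, 552 and 594 CPM in 2D, a log2 fold change of 3.13 ± 0.087 with an adjusted p of 1.18e-12. Fibronectin, Fn1, had 4572, 4662 and 5137 CPM in 3D and 1867, 2057 and 1743 CPM in 2D, a log2 fold change of 1.34 ± 0.070. The summed level of the matricellular list was 12261, 12443 and 13810 CPM in 3D and 4206, 4422 and 4043 CPM in 2D. Col18a1, a basement membrane collagen, had 1301, 1233 and 1227 CPM in 3D and 399, 405 and 399.9 CPM in 2D. Col6a1 had 91.5, 80.5 and 84.4 CPM in 3D and 21.9, 22.9 and 23.4 CPM in 2D. Tnxb, a tenascin, rose from 0.662, 0.288 and 0.356 CPM in 2D to 15.97, 12.7 and 14.2 CPM in 3D.

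Other matrix genes were lower in 3D. Periostin, Postn, had 1.03, 1.29 and 0.153 CPM in 3D and 30.3, 29.3 and 27.6 CPM in 2D, a log2 fold change of -4.89 ± 0.20. Sparc, a collagen-binding matricellular protein, had 79.5, 73.7 and 65.5 CPM in 3D and 292, 298 and 304 CPM in 2D, a log2 fold change of -2.02 ± 0.074. Igfbp7 had 9.64, 8.89 and 10.9 CPM in 3D and 73.8, 76.98 and 80.2 CPM in 2D, a log2 fold change of -2.998 ± 0.10. None of these overlapped between the groups. Col8a1 had 87.9, 86.4 and 103 CPM in 3D and 218, 219 and 188 CPM in 2D. Tnc had 34.7, 31.8 and 36.1 CPM in 3D and 48.5, 52.4 and 48.3 CPM in 2D. The fibroblast collagen gene Col1a2 had only 2 reads over the 3D libraries and 80 over the 2D libraries, a 28.5-fold lower level in 3D with a 95% counting interval of 7.64 to 239.

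Of 35 matrix proteases and inhibitors, 21 were higher and 9 lower. Stromelysin, Mmp3, had 258, 259 and 314 CPM in 3D and 33.5, 35.9 and 38.6 CPM in 2D, a log2 fold change of 2.93 ± 0.089. Collagenase 3, Mmp13, had 18.3, 17.6 and 33.5 CPM in 3D and 2.89, 4.90 and 4.19 CPM in 2D, a log2 fold change of 2.37 ± 0.23. The membrane-bound Mmp14 had 268, 260.0 and 252 CPM in 3D and 187, 187 and 180.5 CPM in 2D. Gelatinase B, Mmp9, overlapped between the groups at 33.9, 27.3 and 31.4 CPM in 3D and 28.6, 28.2 and 25.8 CPM in 2D and did not pass the test (adjusted p = 0.242). The inhibitor Serpine2, protease nexin-1, rose from 6.70, 5.57 and 5.75 CPM in 2D to 93.4, 105 and 105 CPM in 3D, whereas Timp1 did not pass the test, with 83.03, 84.2 and 79.2 CPM in 3D and 75.2, 75.2 and 82.8 CPM in 2D. Timp1 was called higher, at 0.34, when the GC and length dependence was removed. The disintegrin proteases Adam12 and Adamts1 were lower, with log2 fold changes of -1.86 ± 0.12 and -1.63 ± 0.065. When the dependence of each library on GC content and transcript length was removed, the medians of several adhesion lists came closer to that of all genes, which was then -0.079: integrins from 0.34 to 0.16, with 8 higher and 6 lower, laminins from 0.60 to 0.19, matricellular genes from 0.67 to 0.40, cadherins from 0.43 to 0.25, tight junctions from 0.32 to 0.12 and focal adhesion genes from 0.13 to -0.054, with 13 higher and 16 lower.

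**Figure D2:**
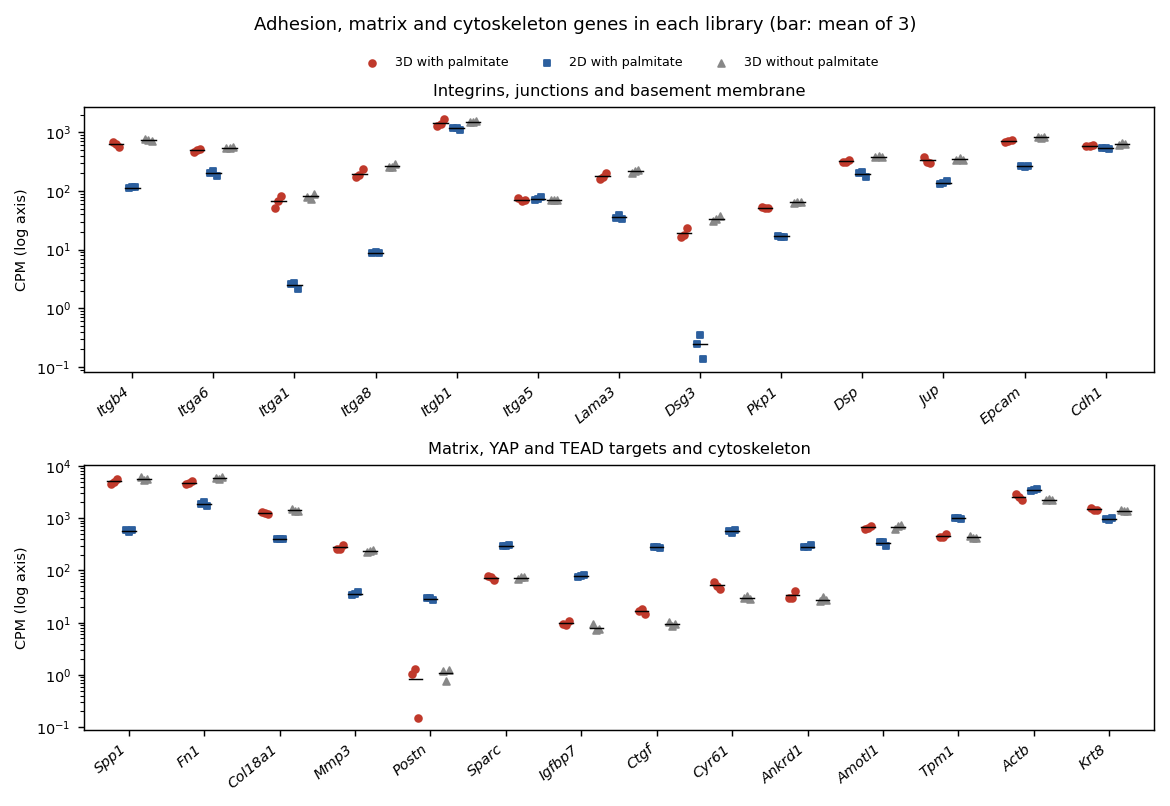
Level of adhesion, matrix and cytoskeleton genes in each library (vertical axis, TMM-scaled CPM on a log axis), with 3 points per group and a bar at their mean. Itgb4, Lama3 and Spp1 lie higher in the 3D libraries with palmitate than in the 2D libraries, Ctgf, Cyr61 and Ankrd1 lie lower, and Itga5 and Cdh1 differ little, while the 3D libraries without palmitate lie near the other 3D libraries.

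Genes of the YAP and TEAD list were mostly lower in 3D. The list holds target genes and also the coactivator genes Yap1 and Wwtr1 and the TEAD gene Tead3, which are part of the counts. Of 31 list members tested, 18 were lower and 8 higher, with 12 at least 2-fold lower and 2 at least 2-fold higher, and the median log2 fold change was -0.48. The matricellular genes Cyr61 and Ctgf and the muscle ankyrin repeat gene Ankrd1 are the classical targets. Ctgf had 17.1, 18.3 and 14.5 CPM in 3D and 282, 284 and 269 CPM in 2D, a log2 fold change of -4.04 ± 0.086 with an adjusted p of 1.18e-13. Cyr61 had 60.6, 49.7 and 44.6 CPM in 3D and 565, 529.5 and 593 CPM in 2D, a log2 fold change of -3.42 ± 0.10 with an adjusted p of 1.96e-12. Ankrd1 had 30.1, 29.6 and 40.3 CPM in 3D and 276, 278 and 305 CPM in 2D, a log2 fold change of -3.14 ± 0.10 with an adjusted p of 4.30e-12. The 3D libraries of all 3 genes lay far below the 2D libraries. Other list members were higher, among them the ectonucleotidase Nt5e at 1.11 ± 0.092 and the junction protein Amotl1 at 1.01 ± 0.084. The coactivator genes, also members of the list and named here after their values were seen, went another way. Yap1 did not pass the test, with 223, 234 and 247 CPM in 3D and 249.7, 252 and 231 CPM in 2D. Wwtr1, which encodes TAZ, was higher, with 511, 513 and 587 CPM in 3D and 283, 272 and 256 CPM in 2D.

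The TEAD core motif GGAATG was searched on both strands in RefSeq promoters (build GRCm38.p6, 250 bases before to 50 after the start site). It occurred in 17 of 33 promoters of the list, or 51.5%, and in 14.7% of all 32851 promoters, as a description of the sequence only. Promoters were available for 28 of the 35 genes of this list, and not for every gene of the other lists searched. A gene without a match may therefore not have been searched. Of the 15 list genes with a match, 9 were lower and 3 higher in 3D, and Wtip, with 0 counts in all 9 libraries, was not tested. Stretches of 120 bases are shown for Cyr61 and Ankrd1, the most strongly lowered genes of the panel with a match, in gene orientation with the motif or its reverse complement in capitals. The Cyr61 stretch is chr3:145650029-145650148 and the Ankrd1 stretch chr19:36119975-36120094, both on the minus strand, with the first motif 103 bases before the start site of Cyr61 and 210 bases before that of Ankrd1.
Cyr61: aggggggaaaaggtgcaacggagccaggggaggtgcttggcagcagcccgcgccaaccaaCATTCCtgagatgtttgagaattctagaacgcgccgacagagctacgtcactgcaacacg
Ankrd1: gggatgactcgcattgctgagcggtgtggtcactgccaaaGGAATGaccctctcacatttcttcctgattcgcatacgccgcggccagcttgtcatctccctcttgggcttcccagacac

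The remaining cytoskeleton genes were divided. Of 54 actin and actomyosin genes 17 were higher and 19 lower, of 32 tubulin and microtubule genes 9 and 13, and of 19 keratin and other intermediate filament genes 6 and 7, with medians of 0.015, -0.14 and -0.079. Of the actin genes 31.5% were higher and 35.2% lower, near the 34.5% and 33.9% of all genes tested. With the GC and length dependence removed, 14 actin genes were higher and 27 lower. The counts were then 6 and 17 for tubulin genes and 7 and 8 for keratin genes. The actin median was -0.12 under that setting, and the signs of the actin and keratin medians also turned under other alternatives. Among actin genes, the tropomyosin Tpm1 had 441, 445 and 503 CPM in 3D and 1026, 989 and 977 CPM in 2D, a log2 fold change of -1.11 ± 0.065. Beta-actin, Actb, had 2883, 2518 and 2226 CPM in 3D and 3372, 3461 and 3658 CPM in 2D, a log2 fold change of -0.46 ± 0.079. The crosslinker filamin A, Flna, was higher, with 1772, 1831 and 2001 CPM in 3D and 1026, 1073 and 889.9 CPM in 2D. The myosin kinase gene Mylk was also higher, with 27.4, 25.1 and 23.1 CPM in 3D and 9.68, 9.19 and 8.64 CPM in 2D. The smooth muscle genes Acta2 and Myl9 were below 1 CPM in all 6 libraries and were not tested. The direction was thus not shared across the list. The CArG box, searched on both strands, was found in 14.9% of the promoters of the actin list and in 1.63% of all. Of the 10 list genes with a match, 2 were higher and 1 lower, and not all 10 were tested, as Myl9 is among them. The simple keratins Krt8 and Krt18 were higher, with log2 fold changes of 0.59 ± 0.058 and 0.24 ± 0.058, whereas Krt7 was lower at -0.51 ± 0.069 and the mesenchymal filament gene Vim at -0.28 ± 0.072. Krt14, of basal epithelium, did not pass the test, with 144, 130.1 and 112 CPM in 3D and 141, 135 and 141 CPM in 2D. Of the tubulins, Tubb5 had 1893, 1761 and 1617 CPM in 3D and 2581, 2581 and 2698 CPM in 2D, a log2 fold change of -0.58 ± 0.063, and Tubb2b had -2.17 ± 0.17.

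Secreted factors moved in both directions, with some of the largest differences of the comparison. Of 144 tested, 64 were higher and 41 lower, with 39 at least 2-fold higher and 27 at least 2-fold lower. Chemokines, which attract leukocytes, were mostly lower: of 13 tested, 7 were lower and 1 higher, with a median log2 fold change of -0.83. Ccl5 had 2.17, 2.51 and 2.91 CPM in 3D and 21.6, 21.3 and 26.3 CPM in 2D, a log2 fold change of -3.27 ± 0.17. The monocyte attractant Ccl2 had 5.01, 4.25 and 4.13 CPM in 3D and 16.7, 14.5 and 14.9 CPM in 2D, a log2 fold change of -1.73 ± 0.13. The neutrophil attractant Cxcl5 had 69.2, 65.7 and 91.3 CPM in 3D and 133, 129 and 133 CPM in 2D, a log2 fold change of -0.83 ± 0.095. Groups did not overlap for these 3 chemokines. Cxcl1, of the same family as Cxcl5, overlapped at 157, 155 and 196 CPM in 3D and 158, 163 and 164 CPM in 2D and did not pass the test. The 1 higher chemokine was fractalkine, Cx3cl1, with 321, 292 and 268 CPM in 3D and 47.7, 48.8 and 50.6 CPM in 2D, a log2 fold change of 2.58 ± 0.077. Through its level, the summed chemokine level was higher in 3D, at 608, 569 and 614 CPM against 495, 491 and 512 CPM in 2D, so the sum and the median differed in direction. A κB site, searched on both strands, was found in 27.6% of the list's promoters and in 5.80% of all. Of the 8 list genes with a match, 0 were higher and 2 lower. Not all 8 were tested, as Ccl1 and Ccl27a had 0 counts in all 9 libraries.

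Of 26 interleukins and other cytokines tested, 15 were higher and 6 lower. Tslp, an epithelial cytokine that acts on dendritic cells and lymphocytes, had 600.2, 594 and 699.7 CPM in 3D and 14.97, 13.2 and 14.5 CPM in 2D, a log2 fold change of 5.48 ± 0.090 with an adjusted p of 6.63e-15. Stem cell factor, Kitl, had 136, 155 and 183 CPM in 3D and 45.7, 47.1 and 36.00 CPM in 2D, a log2 fold change of 1.87 ± 0.11. Il1a had 101, 109.8 and 125 CPM in 3D and 70.8, 72.2 and 71.4 CPM in 2D, a log2 fold change of 0.63 ± 0.074. These 3 were higher in every 3D library. The colony-stimulating factors divided. Csf3, for neutrophils, had 168, 135 and 142 CPM in 3D and 98.7, 109 and 118 CPM in 2D, a log2 fold change of 0.45 ± 0.086. Csf1, for macrophages, had 146, 141 and 139 CPM in 3D and 359, 357 and 356 CPM in 2D, a log2 fold change of -1.33 ± 0.056. Il6 and Csf2 lay near or below 1 CPM, and their calls, at 0.97 ± 0.35 and -1.12 ± 0.45, did not hold under several other settings.

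Growth factors and their antagonists showed similar exchanges within families. Of 61 growth factor genes tested, 26 were higher and 15 lower. The EGF receptor ligand amphiregulin, Areg, had 219.9, 219 and 258 CPM in 3D and 66.00, 66.7 and 62.4 CPM in 2D, a log2 fold change of 1.83 ± 0.078. Hbegf, another ligand of this receptor, overlapped at 115, 116 and 119 CPM in 3D and 116, 120.1 and 118 CPM in 2D and did not pass the test. Within the TGF-β family, Tgfb1 had 137, 117 and 108 CPM in 3D and 61.2, 63.9 and 62.9 CPM in 2D, a log2 fold change of 0.95 ± 0.080. Tgfb2 had 2.06, 2.05 and 2.91 CPM in 3D and 13.1, 13.5 and 12.2 CPM in 2D, a log2 fold change of -2.55 ± 0.14. The activin chains split in the same manner, Inhbb with 2.91 ± 0.10 and Inhba with -1.76 ± 0.10. Angpt1, a ligand of the endothelial receptor TIE2, was higher at 3.69 ± 0.20, and Vegfa was higher at 0.21 ± 0.065.

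Of 44 secreted antagonists and carriers, 22 were higher and 13 lower, 16 of them at least 2-fold higher. Notum, a secreted enzyme that inactivates Wnt ligands, had 17.1, 14.7 and 15.3 CPM in 3D and 1.08, 0.929 and 0.802 CPM in 2D, a log2 fold change of 4.11 ± 0.15. The iron siderophore carrier Lcn2 had 164, 147 and 199 CPM in 3D and 21.8, 20.6 and 22.4 CPM in 2D, a log2 fold change of 2.97 ± 0.14. Ace, the angiotensin-converting enzyme, which is shed from the membrane, had 59.7, 54.8 and 61.1 CPM in 3D and 1.08, 1.41 and 0.936 CPM in 2D, a log2 fold change of 5.62 ± 0.12. For all 3 the 3D libraries lay above the 2D libraries by more than 5-fold. Stc2 and Apoe were lower, with log2 fold changes of -1.64 ± 0.10 and -1.11 ± 0.20. Gdf15 was at or below 0.045 CPM in the 6 libraries and was not tested.

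Redox genes were divided by pathway, with 66 of 147 higher and 51 lower. Of 38 genes of glutathione synthesis and use, 23 were higher and 12 lower, with 15 at least 2-fold higher and 2 at least 2-fold lower and a median log2 fold change of 0.81. The cystine importer Slc7a11 had 402, 483 and 505 CPM in 3D and 78.98, 81.4 and 66.03 CPM in 2D, a log2 fold change of 2.62 ± 0.10. The rate-limiting enzyme of glutathione synthesis, Gclc, had 161, 155 and 169 CPM in 3D and 85.4, 86.6 and 83.6 CPM in 2D, a log2 fold change of 0.92 ± 0.060, its modifier Gclm had 0.51 ± 0.076, and glutathione reductase, Gsr, had 0.82 ± 0.057. These named genes of import, synthesis and reduction were all higher, whereas 12 of the 38 genes of the list were lower. Among users of glutathione, the transferase Gsta4 had 263, 287 and 236 CPM in 3D and 29.3, 25.98 and 32.2 CPM in 2D, a log2 fold change of 3.18 ± 0.10. The conjugate exporter Abcc3 had 77.3, 73.7 and 85.1 CPM in 3D and 4.55, 5.64 and 4.95 CPM in 2D, a log2 fold change of 3.92 ± 0.092. Gsta and Gstm genes are close paralogs, and reads shared between them may have been split or lost in the counting. Chac1, which degrades glutathione, was the lowest member, with 25.9, 26.7 and 20.8 CPM in 3D and 76.4, 75.2 and 76.7 CPM in 2D, a log2 fold change of -1.61 ± 0.081. Gpx4, the lipid peroxide reductase, was slightly lower at -0.22 ± 0.076, and its log2 fold change was 0.010 when the GC and length dependence was removed.

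Of 38 NRF2 regulators and detoxification targets, 21 were higher and 5 lower, with 10 at least 2-fold higher and 0 at least 2-fold lower. Nfe2l2 itself had 215, 230.3 and 290.2 CPM in 3D and 110.5, 111 and 106 CPM in 2D, a log2 fold change of 1.16 ± 0.093, and its inhibitor Keap1 had 0.59 ± 0.061. The aldehyde dehydrogenase Aldh3a1 (chr11:61207537-61218421) had 591, 603 and 459 CPM in 3D and 3.64, 2.47 and 2.90 CPM in 2D, a log2 fold change of 7.59 ± 0.17 with an adjusted p of 1.42e-13. The quinone reductase Nqo1 had 259, 256 and 228 CPM in 3D and 22.3, 21.8 and 22.4 CPM in 2D, a log2 fold change of 3.48 ± 0.071 with an adjusted p of 1.04e-13. Every 3D library lay more than 10-fold above every 2D library for both. Heme oxygenase, Hmox1, often listed beside them, did not pass the test, with 43.2, 42.01 and 35.8 CPM in 3D and 46.9, 44.7 and 47.5 CPM in 2D (adjusted p = 0.0580). The antioxidant response motif TGACNNNGC, searched on both strands, was found in 13.7% of promoters of this list and 20% of those of the glutathione list, against 12.4% of all promoters. Of the 7 genes of this list with a match, 2 were higher and 3 lower. Of the 8 glutathione genes with a match, 5 were higher and 1 lower.

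The thioredoxin, peroxiredoxin and superoxide dismutase list was balanced, with 13 higher and 13 lower of 33. Its higher members included thioredoxin reductase 1, Txnrd1, with 530.4, 546 and 542 CPM in 3D and 284, 297 and 276 CPM in 2D, sulfiredoxin, Srxn1, with 223, 235 and 195 CPM in 3D and 72.5, 75.2 and 75.97 CPM in 2D, and catalase, Cat, with a log2 fold change of 0.74 ± 0.059. Txnip, which binds thioredoxin and responds to glucose, rose from 9.43, 10.6 and 9.94 CPM in 2D to 106, 112 and 122 CPM in 3D. The mitochondrial members Sod2 and Txnrd2 were lower, at -0.58 ± 0.065 and -1.54 ± 0.14. The cytosolic reductase Txnrd1 and the mitochondrial Txnrd2 thus moved in opposite directions, and the related reductase gene Txnrd3 was lower too, at -0.84 ± 0.12. Of 22 NADPH supply genes 4 were higher and 13 lower. The pentose phosphate dehydrogenases were higher, G6pdx at 0.33 ± 0.058 and Pgd at 0.84 ± 0.056, while the mitochondrial folate enzymes were lower. Mthfd2 had 86.4, 88.7 and 79.5 CPM in 3D and 326, 329.9 and 343 CPM in 2D, a log2 fold change of -1.97 ± 0.068. Shmt2 had 208, 184 and 176 CPM in 3D and 603, 619 and 641 CPM in 2D, a log2 fold change of -1.71 ± 0.072. Of 16 oxidant sources 5 were higher and 8 lower, Xdh at 2.04 ± 0.088 and Smox at 1.84 ± 0.086 on one side and Nos2 at -1.14 ± 0.14 and Maoa at -0.74 ± 0.076 on the other.

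**Figure D3:**
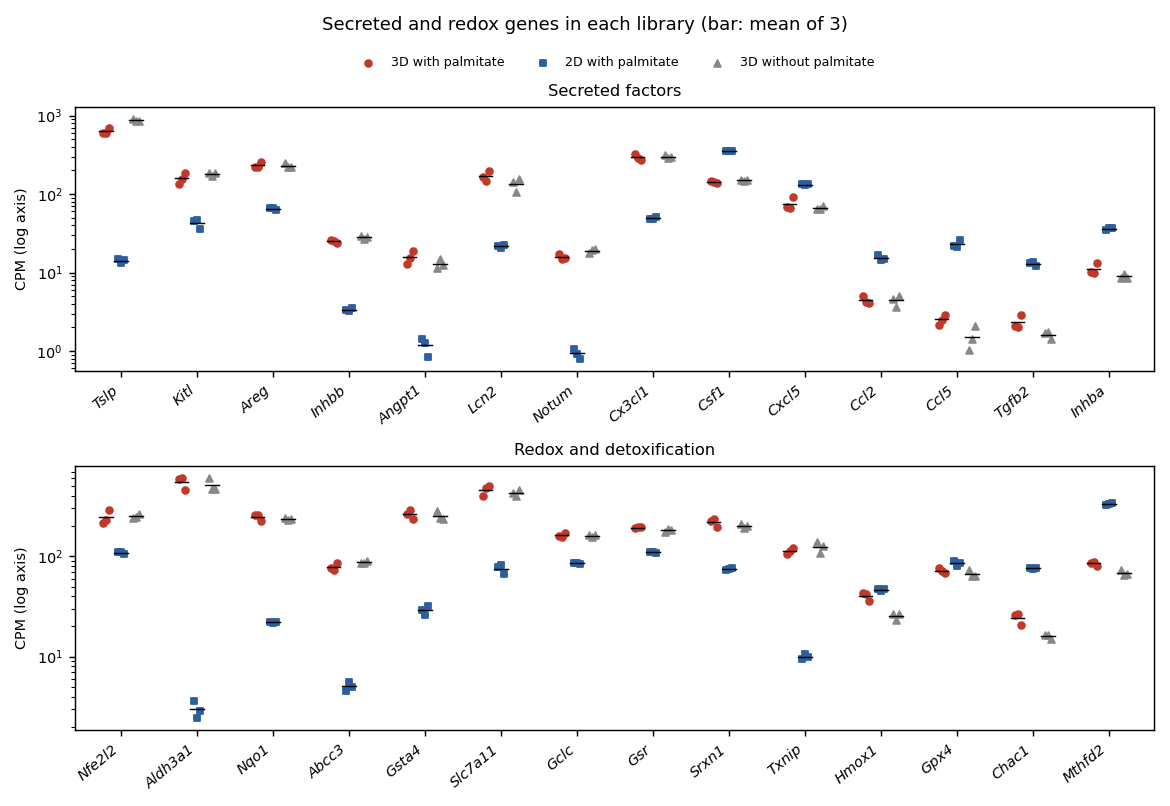
Level of secreted factors and of redox genes in each library (vertical axis, TMM-scaled CPM on a log axis), with 3 points per group and a bar at their mean. Tslp, Aldh3a1 and Nqo1 lie higher in 3D than in 2D and Ccl5, Csf1 and Mthfd2 lie lower, with no overlap between the 3D and 2D libraries with palmitate.

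Genes of the translation machinery were mostly lower in 3D. Of 372 tested, 329 were lower and 9 higher, with a median log2 fold change of -0.69. The ribosomal proteins moved as a block: of 82 cytosolic ribosomal protein genes tested, 81 were lower and 0 higher, and the 1 left, Rpl30, lay between 0.153 and 1.03 CPM in the 6 libraries. The summed large subunit genes had 10907, 10588 and 9717 CPM in 3D and 20885, 19639 and 22005 CPM in 2D, and the summed small subunit genes had 8549, 8215 and 7207 CPM in 3D and 15210, 14165 and 16095 CPM in 2D. Every 3D sum lay below every 2D sum. Rpl3 had 378, 378 and 379 CPM in 3D and 733, 700.0 and 773 CPM in 2D, a log2 fold change of -0.96 ± 0.059. Rps6 had 97.5, 104 and 125 CPM in 3D and 224, 214 and 216 CPM in 2D, a log2 fold change of -1.01 ± 0.089. The widest gaps of the named genes were in Rps12, with -1.35 ± 0.12, and Rpl23a, with -1.30 ± 0.11. Ribosomal protein genes have many near-identical pseudogenes, and with reads of 50 bases the counting could have lost or split part of their reads.

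The factors that work on the ribosome were mostly lower too. Of 55 initiation factors and regulators 41 were lower and 5 higher, and of 20 elongation and termination factors 15 were lower and 0 higher, with medians of -0.46 and -0.45. Eif4e, the cap-binding factor, had 113, 131 and 149 CPM in 3D and 204, 193 and 205 CPM in 2D, a log2 fold change of -0.63 ± 0.085. Its inhibitor Eif4ebp1 had 103, 98.2 and 74.7 CPM in 3D and 212, 207 and 241 CPM in 2D, a log2 fold change of -1.24 ± 0.10. Eif2s2, a subunit of the factor that brings the initiator tRNA, had -1.30 ± 0.10. The higher members included inhibitors of initiation, Pdcd4 at 0.90 ± 0.11 and the eIF2α kinase Eif2ak3 at 0.61 ± 0.081. The elongation factors Eef1a1 and Eef2 had log2 fold changes of -0.45 ± 0.060 and -0.46 ± 0.053.

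Ribosome assembly genes were lower to a similar degree. Of 93 genes of ribosome biogenesis and RNA polymerase I, 82 were lower and 3 higher, with a median of -0.68. The nucleolar protein gene Npm1 had 727, 799 and 926 CPM in 3D and 2366, 2208 and 2369 CPM in 2D, a log2 fold change of -1.50 ± 0.078, and Ncl had -1.26 ± 0.072. Myc, the transcription factor known to drive these genes, had 182, 157 and 159 CPM in 3D and 459, 439.6 and 484 CPM in 2D, a log2 fold change of -1.47 ± 0.072 with an adjusted p of 3.19e-10. Polr1a, the largest subunit of RNA polymerase I, had a log2 fold change of 0.17 ± 0.069, which was -0.31 when the GC and length dependence was removed.

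Of 22 cytosolic tRNA synthetase genes, which charge tRNAs with amino acids, 20 were lower and 0 higher, with a median of -0.68. Sars had 272, 275 and 261 CPM in 3D and 626, 624 and 673 CPM in 2D. Cars had 129, 130.1 and 116 CPM in 3D and 284, 279 and 294 CPM in 2D. The log2 fold changes were -1.25 ± 0.063 for Sars and -1.19 ± 0.066 for Cars, without overlap of the groups. The amino acid response motif TGATGNAAT, searched on both strands, occurred in 3 of 16 promoters of the list, those of Aars, Gars and Iars, or 18.8%, against 0.965% of all promoters. Promoters were available for 15 of the 22 list genes. Aars, Gars and Iars, named for the match, were all lower. Gars had 305, 303 and 315 CPM in 3D and 615, 619 and 618 CPM in 2D. Aars had 391.7, 392.4 and 363 CPM in 3D and 614, 616 and 621 CPM in 2D. Stretches of 120 bases are shown for both as the promoters with the larger differences, in gene orientation, with the reverse complement of the motif in capitals. The Gars stretch is chr6:55037881-55038000 and the Aars stretch chr8:111033669-111033788, both on the plus strand of GRCm38.p6, with the motif beginning 31 and 113 bases before the start site.
Gars: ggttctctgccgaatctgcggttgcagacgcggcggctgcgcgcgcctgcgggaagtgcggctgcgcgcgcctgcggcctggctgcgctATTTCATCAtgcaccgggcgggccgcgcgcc
Aars: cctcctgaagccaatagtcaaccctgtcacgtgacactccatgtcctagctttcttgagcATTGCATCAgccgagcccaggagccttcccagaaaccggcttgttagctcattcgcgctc

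Genes of mitochondrial translation were mostly lower as well. Of 83 mitochondrial ribosomal protein genes 79 were lower and 0 higher, with a median of -0.67, and their summed level was 3177, 3092 and 2884 CPM in 3D and 5019, 4746 and 5212 CPM in 2D. Of 17 mitochondrial tRNA synthetases 11 were lower and 1 higher. Aars2, for alanine, had a log2 fold change of -1.50 ± 0.10. The higher one, Lars2, singled out after its values were seen, had 2102, 3805 and 706 CPM in 3D, 1006, 875 and 857 CPM in 2D and 1038, 755 and 1252 CPM in 3D without palmitate. In the 3D libraries with palmitate its level moved with the share of counts on Rn45s, the ribosomal RNA precursor, which was 3.14, 5.38 and 1.81% in the same order. The part of ribosomal RNA reads in the Lars2 count was not tested. Without Lars2 the summed list was 431, 418 and 393 CPM in 3D and 591, 578 and 600 CPM in 2D.

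Respiratory genes of the nucleus were lower in 3D across all 5 complexes. Of 80 subunit genes tested, 74 were lower and 0 higher, with a median log2 fold change of -0.60. The numbers lower were 33 of 35 for complex I, 4 of 4 for complex II, 9 of 9 for complex III, 13 of 14 for complex IV and 15 of 18 for ATP synthase, with medians of -0.60, -0.28, -0.75, -0.62 and -0.50. The median of complex IV was -0.31 with the GC and length dependence removed, and the other medians then lay between -0.57 and -0.24. Complex III, which passes electrons from ubiquinol to cytochrome c, had the lowest median. Its subunit Cyc1 had 83.8, 78.5 and 62.2 CPM in 3D and 178, 172 and 186 CPM in 2D, a log2 fold change of -1.24 ± 0.086. Uqcrc1 had 243, 216 and 159.6 CPM in 3D and 352, 336 and 362 CPM in 2D, a log2 fold change of -0.75 ± 0.11. Replicate 3 was the lowest 3D library for both. In complex II, shared with the citric acid cycle, Sdha had -0.31 ± 0.057, Sdhb -0.40 ± 0.076, Sdhc -0.25 ± 0.081 and Sdhd -0.16 ± 0.060. The value of Sdhd was 0.035, and not called, when the GC and length dependence was removed. Ndufs1 of complex I had -0.49 ± 0.071, Cox4i1 of complex IV -0.65 ± 0.084 and Atp5a1 of ATP synthase -0.50 ± 0.055. The 13 subunits encoded by mitochondrial DNA were not analysed here.

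Other genes of carbon metabolism were also mostly lower. Of 26 citric acid cycle and pyruvate entry genes 21 were lower and 2 higher. Citrate synthase, Cs, had 325, 314 and 295 CPM in 3D and 522, 537 and 524 CPM in 2D, a log2 fold change of -0.76 ± 0.062, and Mdh2 had -0.998 ± 0.084. Glycolysis genes were mostly lower as well: of 24 genes 17 were lower and 4 higher, with a median of -0.48. Ldha, lactate dehydrogenase A, had 818, 794 and 723 CPM in 3D and 1549, 1521 and 1528 CPM in 2D, a log2 fold change of -0.98 ± 0.060, and Eno2 and Eno3 had -1.27 ± 0.11 and -1.27 ± 0.088. The lactate carrier Slc16a1 was higher at 0.55 ± 0.063, and so was Pfkfb2 at 0.72 ± 0.086. Of 25 hypoxia response genes 9 were higher and 13 lower. The carbonic anhydrases of this list parted: Car9 had 68.05, 63.8 and 55.3 CPM in 3D and 31.9, 33.7 and 33.2 CPM in 2D, a log2 fold change of 0.93 ± 0.077. Car12 had 38.1, 37.4 and 38.6 CPM in 3D and 104, 109 and 98.96 CPM in 2D, a log2 fold change of -1.45 ± 0.071. Among genes of mitochondrial biogenesis, 11 of 22 were lower and 1 higher. Tfam, which packs mitochondrial DNA, had -0.37 ± 0.063, the fusion gene Mfn2 had 0.43 ± 0.084, and Ppargc1a was below 1 CPM in every library and was not tested.

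**Figure D4:**
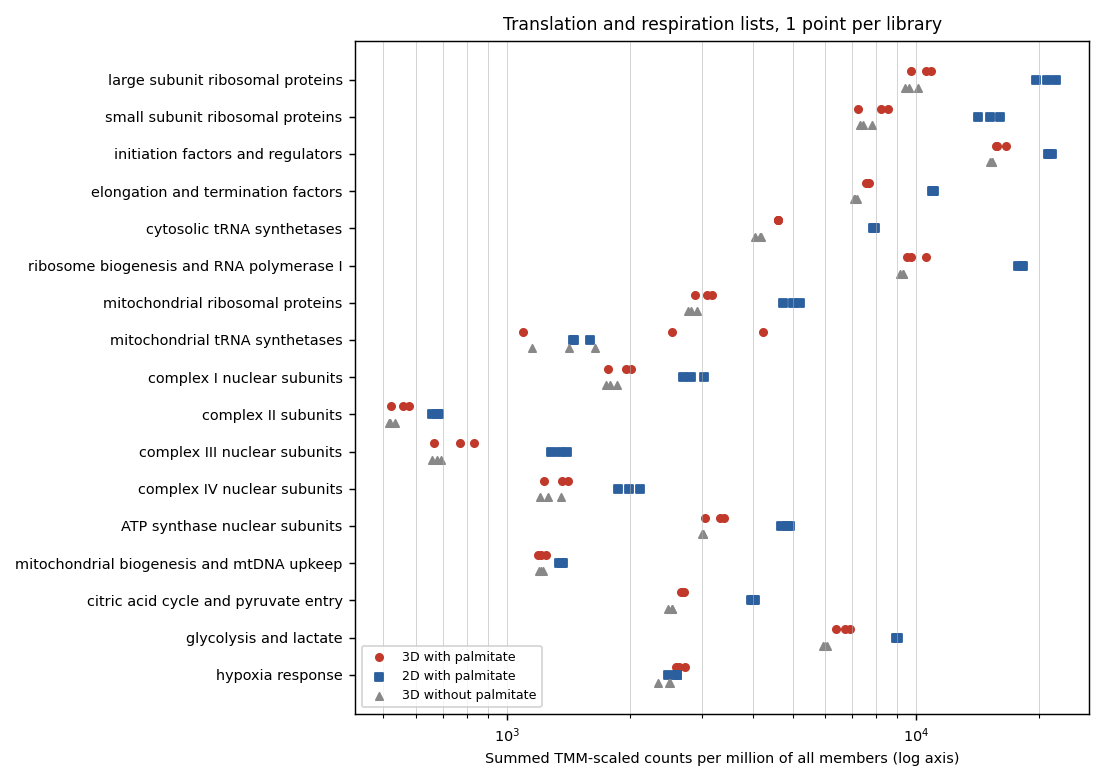
Summed level of all members of each translation and respiration list in each library (horizontal axis, TMM-scaled CPM on a log axis), with 1 point per library and triangles for 3D without palmitate. In 15 of the 17 lists the 3 2D libraries (squares) lie to the right of the 3 3D libraries with palmitate (circles), the exceptions being the mitochondrial tRNA synthetases, with Lars2 included, and the hypoxia response, where the groups overlap.

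Proliferation genes showed small differences. Of 49 genes of DNA replication 25 were lower and 4 higher, and of 52 mitosis genes 28 were lower and 4 higher, with medians of -0.19 and -0.21 and 0 at least 2-fold lower in either list. The shares lower were 51.0% and 53.8%, against 33.9% of all genes tested. With the GC and length dependence removed, 30 replication genes were lower and 5 higher, and 40 mitosis genes lower and 2 higher. The medians were then -0.18 and -0.29. Without replicate 3 of the 3D libraries with palmitate, 32 mitosis genes were lower and 5 higher. Mki67, a marker of cycling cells, overlapped between the groups at 1117, 1275 and 1593 CPM in 3D and 1238, 1289 and 1150 CPM in 2D and did not pass the test (adjusted p = 0.343), and its log2 fold change went from 0.12 to -0.38 when the GC and length dependence was removed. Mcm2, of the replication helicase, had -0.20 ± 0.057, and cyclin B1, Ccnb1, had -0.29 ± 0.059. The cyclin genes Ccne1 and Ccne2 were higher, at 0.69 ± 0.094 and 1.12 ± 0.18. The cell cycle inhibitor Cdkn1a had 92.3, 85.2 and 84.5 CPM in 3D and 20.5, 18.2 and 18.8 CPM in 2D, a log2 fold change of 2.20 ± 0.073 with an adjusted p of 4.66e-12. Its level in every 3D library was more than 4-fold above that in any 2D library.

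For the named genes, the 3D libraries without palmitate mostly lay on the same side of the 2D libraries as those with palmitate. Of 202 called genes covered by the naming rule, all 3 of these libraries lay beyond all 2D libraries on that side for 197, on the opposite side for 0, and overlapped the 2D libraries for 5. Many of these genes were named for large differences without overlap, which favors such a count. The same count over all called genes was not made. Between 3D cultures with and without palmitate, 275 genes or 2.19% passed the test, and of 1279 tested members of all lists 55 did, 44 higher and 11 lower with palmitate. This comparison shares the 3D libraries with palmitate with the other, so the values are set side by side only. Cyr61 and Ctgf, lower in 3D than in 2D, had log2 fold changes with palmitate in 3D of 0.81 ± 0.10 and 0.83 ± 0.10, and their levels without palmitate were 29.3, 32.95 and 27.99 CPM for Cyr61 and 10.5, 8.59 and 9.28 CPM for Ctgf. Tslp, higher in 3D, had -0.47 ± 0.071 with palmitate and 904, 860.3 and 861 CPM without. Dsg3 and Itga8 had -0.84 ± 0.12 and -0.46 ± 0.10, and the redox genes Hmox1, Chac1, Mthfd2 and Shmt2 had 0.68 ± 0.083, 0.65 ± 0.089, 0.32 ± 0.069 and 0.37 ± 0.072. In translation 10 of 372 genes and in respiration 7 of 177 passed, beside the 2.19% of all genes tested. These were all higher with palmitate, as were 44 of the 55 over all lists, so no trait of the 2 themes is read from them. The number 275 depended on each library: 1901 genes passed without replicate 3 of the 3D libraries with palmitate, and between 71 and 148 without any other of the 6 3D libraries. Without the same replicate, the counts of higher and lower genes between 3D and 2D changed by at most 4 in any of the 41 lists.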

How the data were processed

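RNA was extracted with TRIzol, and stranded mRNA libraries were sequenced as single reads of 50 bases. The authors trimmed and checked the reads (FastQC 0.11.9), aligned them with HISAT2 2.1.0 to GRCm38 and counted reads per gene with HTSeq. The strand setting of the counting and its annotation are not given in the sources used here, so antisense or overlapping genes may share reads. The deposited values are raw counts per gene symbol for 9 libraries.

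Genes with enough counts (filterByExpr) were scaled by TMM and tested with the quasi-likelihood test of edgeR 4.0.16 (limma 3.58.1, R 4.3.3) in 1 fit over all 9 libraries, with condition as the only term. The standard error of a log2 fold change is its size divided by the root of the F statistic. A gene was called at a Benjamini-Hochberg adjusted p under 0.05 over all genes tested. Counting intervals of 95% cover counting error only, and no p-value was computed for a list. The script was tested on simulated data.

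The members and lists were chosen with earlier results of these data known. Genes were named by a fixed panel, by the 2 largest called differences in each direction of each list, by the 10 largest in each direction over all genes, the last 2 only with a mean of at least 10 CPM in 1 group and no overlap of libraries, and in full for lists of 4 genes or fewer. Genes outside this rule are said to be chosen otherwise where they appear, or are marker genes, genes too low to test or genes with a promoter match. Some genes covered by the rule are not reported here. Coordinates are from GENCODE on GRCm38 and promoters from RefSeq on GRCm38.p6.

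The alternatives were RLE scaling or library size alone, no filter on low counts or at least 10 counts in every library, the 2 groups alone, a replicate block, DESeq2 1.42.0, a minimum log2 fold change of 0.5, a fold of at least 2 (added after seeing the data), removal of the dependence of each library on GC and transcript length (natural splines with 4 degrees of freedom), and leaving out each library in turn.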

Additional observations from a re-analysis of the deposited data

How the results depend on the processing

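The number of genes called between 3D and 2D was 8594, and 7977 to 8866 when a library was left out. A minimum log2 fold change of 0.5 left 5113 genes, 2690 higher and 2423 lower, and a fold of at least 2, added after seeing the data, left 1970, 1236 higher and 734 lower. With the GC and length dependence removed 8985 genes were called, 3810 of them higher, so the share of higher calls went from 50.4% to 42.4%. Under that setting the log2 fold change turned from -0.22 to 0.010 for Gpx4, from 0.17 to -0.31 for Polr1a, from 0.12 to -0.38 for Mki67, from -0.16 to 0.035 for Sdhd and from 0.41 to -0.083 for Cenpf. The cause was not tested. Under the same setting 5 genes gained a call, Itga5 at -0.27, Timp1 at 0.34, Tagln at 0.59, Cxcl1 at 0.17 and Mt1 at 0.32, and Csf2 lost it at -0.81. Other settings also gave calls to genes that did not pass the main test, Cdh1 with at least 10 counts in every library, Hmox1 with library size scaling, with no filter and without replicate 1 of the 3D libraries with palmitate, Krt14 and Mki67 without that replicate, and Tagln without replicate 3 of the 2D libraries. Removing the GC and length dependence also moved the medians of 11 of 41 lists by more than 0.2 or across 0, against 0 to 2 lists under each other alternative. Between 3D with and without palmitate, 275 genes were called, 77 in a fit of these groups alone, 111 with the replicate block, and 71 to 1901 when a library was left out. Same-numbered 3D and 2D libraries with palmitate had deviations correlated at -0.12, -0.0033 and -0.24, and differently numbered ones at -0.17 to 0.28. With 3 libraries a group, these values cannot tell whether the replicate numbers pair the libraries. With the block 8323 genes were called between 3D and 2D. The depth of the shallowest library, 6595514 counts, limits what can be said of genes near 1 CPM.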

Other observations

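Outside the lists described so far, some of the largest differences were in genes that were near silent in 2D. The scavenger receptor gene Scara5, which takes up ferritin, had 303, 315 and 335 CPM in 3D and 1.98, 1.95 and 1.65 CPM in 2D, a log2 fold change of 7.41 ± 0.10. Mgp, an inhibitor of calcification in matrix, had 78.1, 72.7 and 73.05 CPM in 3D and 0.910, 1.44 and 1.69 CPM in 2D, a log2 fold change of 5.71 ± 0.14. The inflammasome family gene Nlrp10 had 23.4, 27.96 and 33.1 CPM in 3D and at most 0.18 CPM in 2D, and the urea transporter Slc14a1 had 12.6, 11.7 and 14.1 CPM in 3D and at most 0.13 CPM in 2D. Gas7, which binds actin, had 677 reads over the 3D libraries and 3 over the 2D libraries, a 317-fold higher level in 3D with a 95% counting interval of 108 to 1539. The chitinase-like protein gene Chil1 and the sialic acid receptor gene Siglec15 had log2 fold changes of 5.80 ± 0.30 and 5.80 ± 0.24.

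The largest differences in the other direction were smaller. Sdpr, which encodes the caveolar protein cavin-2, had 9.31, 10.6 and 14.5 CPM in 3D and 90.6, 87.2 and 79.1 CPM in 2D, a log2 fold change of -2.99 ± 0.13. Apobec1, a cytidine deaminase, had -2.93 ± 0.16, the cysteine protease gene Ctsw had -3.15 ± 0.13, and Mettl7b had -3.20 ± 0.19. For each of these 4 genes the 3D libraries without palmitate also lay below the 2D libraries.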
